A study of Mus musculus with 8 samples.

Results

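The genes that build cholesterol and fatty acids were followed in pre-germinal center (pre-GC) B cells 3 days after immunization. The 32 genes were listed by their known function, out of 24259 gene symbols in the count table, and comprised 7 genes of the mevalonate pathway, 11 that turn its products into squalene and then cholesterol, 5 that control the SREBP transcription factors, 1 sterol carrier and 8 genes of fatty acid synthesis and desaturation. Messenger RNA had been sequenced from 8 libraries of NP+ IgD-low B220+ B cells (cells that bind the hapten NP and have lost most surface IgD) sorted from lymph nodes of C57BL/6 mice. All recipients were CD45.1 Sap-/- mice, whose own T cells cannot sustain germinal centers, and all had been given OT-II T cells (specific for ovalbumin) 1 day before NP-OVA with LPS in alum. In the HET group (n = 4) the transferred OT-II T cells were Cd4-cre with a single floxed Bcl6 allele (Bcl6 fl/+), while those of the WT group (n = 4) had Cd4-cre and no floxed allele. Cd4-cre deletes in T cells, so the sequenced B cells had intact Bcl6 and no deleted gene was there to check the labels against. According to the methods, B cells from several recipients of a group were pooled before sorting, and the 4 libraries of about 200 cells each were repeats from that pool. The spread between repeats was therefore technical, every p-value below measures against that spread only, and a difference between the groups cannot be told apart from a difference between the pools.

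Cells make cholesterol from acetyl-CoA through mevalonate and squalene, and the same mevalonate branch supplies the lipid anchors of many signaling proteins. When membranes are poor in sterol, SCAP escorts SREBP proteins from the endoplasmic reticulum to the Golgi, where they are cut and released to switch on sterol genes (mainly SREBP2, from Srebf2) and fatty acid genes (mainly SREBP1, from Srebf1), while INSIG proteins hold SCAP back when sterol is plentiful. Activated B cells need new membrane as they grow and divide, and both pathways are known to be used in such cells.

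Total counts ran from 6652386 to 12559189 per library, with overlapping groups (exact permutation test, two-sided, p = 0.429, where the smallest possible p was 0.0286). The 10 B cell markers examined, such as Cd79a and Ms4a1, were all present and summed to between 11320 and 14190 CPM (counts scaled to a common library size by the TMM method). All 10 were lower in HET, 7 of them with an unadjusted p under 0.05 (against 3.88% of all genes) and 4 with no overlap between groups (against 2.62%), and the lowest adjusted p was 0.344. Markers of other cells were also found. The 12 T cell markers summed to 477 to 743 CPM in HET and 415 to 614 CPM in WT. Cd4 was at no more than 0.758 CPM in any library, while Lck and Cd3g had mean log2 CPM of 6.99 and 4.37. Of the 11 tested, 9 were higher and 2 lower in HET, with a median log2 fold change of 0.48. None of them had an unadjusted p under 0.05 (against 7.22% of all genes). The 10 myeloid markers summed to 427 to 634 CPM in HET and 330.0 to 719 CPM in WT, mostly from Cst3 and Ly6c2 (means of 253 and 224 CPM in HET, 227 and 108 CPM in WT), and Lyz2 was at 399 CPM in WT replicate 2 and at no more than 28.5 CPM in any other library. Fcgr1 and S100a8 were among the markers too low to be tested. The 10 plasmablast markers summed to 362 to 2290 CPM in HET, where replicate 1 was highest with Jchain at 1576 CPM, and 297 to 668 CPM in WT. Of 22 markers of cycling cells, 21 were higher in HET, 8 of them with an unadjusted p under 0.05 (against 3.34% of all genes), and the lowest adjusted p was 0.087. In bulk RNA, fewer cells of a type and less RNA per cell cannot be told apart, and what these markers contribute to the values below was not tested.

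HET replicate 4 stood apart from the other HET repeats in the synthesis genes. Their score, the mean log2 CPM over the 32 genes, was 4.47, 4.34, 4.33 and 4.85 in HET replicates 1 to 4 and 4.58, 4.60, 4.34 and 4.44 in WT replicates 1 to 4. The groups overlapped, and their means differed by 0.0061 (HET minus WT). Without HET replicate 4 the difference was -0.11. The results below are given with all libraries, and without HET replicate 4, or another named library, where it weighs on them. Such libraries were picked after the values were seen. A smaller p or a lack of overlap without them is therefore no support for a difference.

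To see whether the allele carried by the helping T cells went with a difference in these genes, HET was compared with WT by edgeR's quasi-likelihood test over all 12744 genes with enough counts, which included all 32 synthesis genes. None of the 32 passed an adjusted p of 0.05, against 3 of all genes (0.0235% of those tested). None had an unadjusted p under 0.05, against 7.22% of all genes, and none had groups that did not overlap, against 4.61%. DESeq2, which called 77 genes in all (0.604%), also called none of the 32 and gave none of them an unadjusted p under 0.05, against 8.22% of all genes. Of the 32 genes, 12 were higher and 20 lower in HET, with a median log2 fold change (HET minus WT) of -0.07, where the median over all genes was -0.0014. Without HET replicate 4, 11 were higher and 21 lower with a median of -0.13, and without HET replicate 3, 18 were higher and 14 lower with a median of 0.02. Without HET replicate 1, 3 or 4 in turn, 2 of the 32 genes each time had an unadjusted p under 0.05, against 8.2%, 6.12% and 6.44% of all genes, and 2, 2 and 1 of them had groups that did not overlap, against 9.18%, 7.42% and 7.82%.

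The single differences ran from -0.42 for Insig1 to 0.75 for Fads1 on the log2 scale. The lowest unadjusted p was 0.0689 for Pmvk, with an adjusted p of 0.716. The data limited some differences more closely than others. For 17 of the 32 genes the 95% interval of the fold change lay within 2-fold in either direction, and for Acly, Ebp, Scd1 and Srebf1 it lay within 1.5-fold. For the other 15, including Idi1, Insig1 and Msmo1, a 2-fold difference in some direction was not excluded by the interval. The plot of differences with their intervals shows this for each gene.

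**Figure D1:**
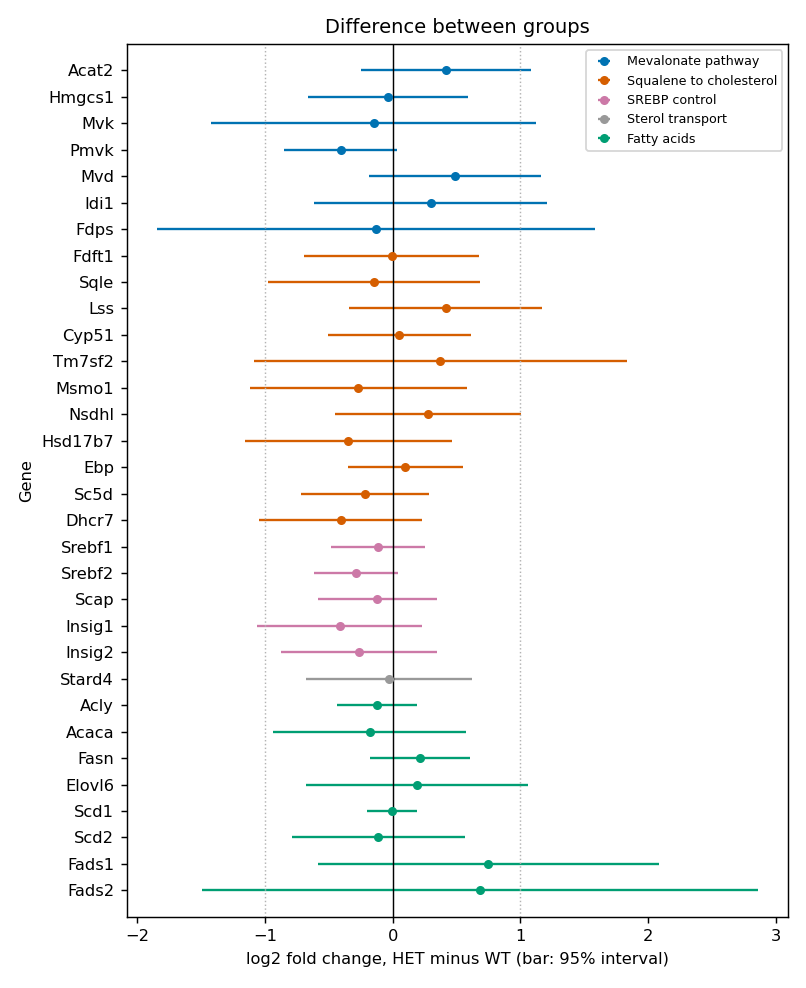
Log2 fold change of each of the 32 genes, HET minus WT (x axis), from edgeR with its 95% interval as a bar, coloured by role; dotted lines mark 2-fold. All 32 intervals cross 0, and the narrowest is that of Scd1 (-0.20 to 0.19).

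Next, the genes were examined by role, beginning with the promoters of 5 of them. The 180 bases before the start of Hmgcs1, Idi1, Cyp51, Msmo1 and Insig1 are shown because each of these genes had its highest HET value in HET replicate 4, as described below, and because SREBP proteins are known to act at such sites together with the CCAAT-binding factor NF-Y. Promoters were taken from RefSeq on GRCm38.p6 (250 bases before to 50 after the start), which matched 25 of the 32 genes. Fdft1, Fdps, Fads1, Scd1, Scd2, Sqle and Stard4 were without an entry. Sequences run 5' to 3' on the strand of the gene, and capitals mark the CCAAT box (CCAAT, or ATTGG on the other strand), a sterol regulatory element (TCACNCCAC) or an E-box (CACGTG).
Hmgcs1 (chr13:119690171-119690350, plus strand): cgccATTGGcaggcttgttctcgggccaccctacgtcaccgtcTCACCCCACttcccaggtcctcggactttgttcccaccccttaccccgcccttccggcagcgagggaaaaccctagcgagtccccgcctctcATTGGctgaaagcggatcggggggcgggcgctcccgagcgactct
Idi1 (chr13:8885426-8885605, plus strand): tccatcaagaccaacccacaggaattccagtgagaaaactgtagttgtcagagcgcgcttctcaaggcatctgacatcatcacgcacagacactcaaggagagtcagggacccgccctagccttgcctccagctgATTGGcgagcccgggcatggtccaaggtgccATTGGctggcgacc
Cyp51 (chr5:4104698-4104877, minus strand): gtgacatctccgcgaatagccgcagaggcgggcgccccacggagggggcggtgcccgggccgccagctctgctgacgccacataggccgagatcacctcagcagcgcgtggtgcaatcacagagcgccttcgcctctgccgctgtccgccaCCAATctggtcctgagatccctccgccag
Msmo1 (chr8:64733579-64733758, minus strand): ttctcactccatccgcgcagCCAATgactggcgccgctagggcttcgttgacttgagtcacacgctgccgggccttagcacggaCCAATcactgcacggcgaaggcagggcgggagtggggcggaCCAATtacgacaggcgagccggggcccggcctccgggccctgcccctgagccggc
Insig1 (chr5:28071232-28071411, plus strand): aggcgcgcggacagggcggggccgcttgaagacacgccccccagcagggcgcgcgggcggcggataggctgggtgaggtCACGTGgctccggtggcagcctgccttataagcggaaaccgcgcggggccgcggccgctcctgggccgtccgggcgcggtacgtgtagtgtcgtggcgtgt
In these windows the Hmgcs1 promoter held a sterol regulatory element from -137 to -129 and CCAAT boxes on the other strand starting at -176 and -45, Msmo1 held 3 CCAAT boxes, Idi1 held 2, and Cyp51 held 1 from -29 to -25. Insig1 held an E-box from -101 to -96, and its CCAAT box lay further upstream from -216 to -212. Over the full promoters, searched on both strands, CCAAT was found in 20 of the 25 genes (80.0%), against 41.1% of 27025 genes with a promoter in the table. The sterol regulatory element as spelled here was found in Hmgcs1 alone among the 25 (4.0%, against 1.44% of genes), and the E-box in 5 of them (against 8.09% of genes), namely Dhcr7, Hsd17b7, Insig1, Sc5d and Scap. CCAAT was also found in genes with their highest HET value in another library than replicate 4, among them Mvk, Nsdhl, Ebp, Mvd, Lss, Tm7sf2 and Dhcr7. It was missing from Acat2, Scap and Acaca, highest in HET replicate 4, and from Elovl6 and Fads2, highest in another HET library. Genes with and without CCAAT thus occurred on both sides. These are matches of letters and not measured binding sites.

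The 5 genes that control SREBP were all lower in HET, with a median log2 fold change of -0.27, and none passed the test. With 1 library left out in turn, the difference ran from -0.26 to 0.0308 for Scap and from -0.41 to -0.043 for Insig2. Srebf2 (chr15:82147181-82205379), which encodes the main activator of sterol genes, was at 92.7, 85.4, 61.4 and 94.8 CPM in HET replicates 1 to 4 and at 104, 85.0, 111 and 109 CPM in WT replicates 1 to 4. WT replicate 2 lay within the HET range, and the other three WT libraries lay above it. Its log2 fold change was -0.29 ± 0.15 (SE, n = 4 per group), with a 95% interval of -0.62 to 0.04, an unadjusted p of 0.0835 and an adjusted p of 0.74. Srebf1 (chr11:60199089-60222581), the source of SREBP1, was at 48.0, 46.2, 54.8 and 49.3 CPM in HET and at 46.9, 59.9, 44.2 and 63.4 CPM in WT. Its groups overlapped, with a difference of -0.11 ± 0.17 and an adjusted p of 0.931. Scap, whose product carries SREBP to the Golgi, had 44.6, 39.5, 27.4 and 52.2 CPM in HET and 39.1, 39.7, 44.4 and 54.9 CPM in WT, and in both groups replicate 4 was highest.

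Insig1 (chr5:28071363-28078662), which encodes a retention protein and is itself a known SREBP target, was at 28.9, 26.6, 28.9 and 47.0 CPM in HET and at 35.2, 40.6, 25.6 and 73.5 CPM in WT. Replicate 4 was far above the other repeats in both groups, and the groups overlapped. The difference was -0.42 ± 0.30, with a 95% interval of -1.06 to 0.23 and an adjusted p of 0.818, and it was -0.63 (adjusted p = 0.803) without HET replicate 4. Over the fits that each left out 1 library, the Insig1 difference ran from -0.63 to -0.0453. Insig2, the related gene that is not under the same sterol control, was at 20.3, 14.5, 15.3 and 18.6 CPM in HET and at 14.6, 22.1, 16.5 and 29.6 CPM in WT. Its difference was -0.27 ± 0.28. The score over the 5 control genes was 5.37, 5.18, 5.07 and 5.54 in HET and 5.32, 5.49, 5.30 and 5.93 in WT, so that the highest library of each group was again replicate 4.

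In the mevalonate pathway 3 genes were higher and 4 lower in HET, with a median of -0.04. Hmgcs1 (chr13:119690379-119708260), which makes HMG-CoA, was at 48.8, 40.3, 30.7 and 54.7 CPM in HET and at 32.7, 39.4, 29.5 and 77.2 CPM in WT. WT replicate 4 was the highest of the 8 libraries, and the other three WT values lay within or just below the HET range. The difference was -0.04 ± 0.29 (adjusted p = 0.985), and it was 0.37 without WT replicate 4. Idi1 (chr13:8885501-8892451), the isopentenyl diphosphate isomerase, was at 12.0, 10.9, 24.1 and 36.4 CPM in HET and at 16.3, 19.4, 7.32 and 24.4 CPM in WT. HET libraries differed among themselves by more than the groups did, and the difference of 0.30 ± 0.42 (adjusted p = 0.924) became -0.11 without HET replicate 4.

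Acat2, the cytosolic thiolase that makes acetoacetyl-CoA, was lowest in HET replicate 1 at 15.3 CPM and ran from 39.6 to 52.6 CPM in the other HET libraries, against 22.1 to 33.2 CPM in WT. Its difference was 0.42 ± 0.31 with all libraries. Without HET replicate 1 the HET and WT values of Acat2 no longer overlapped, and the difference was 0.68 (unadjusted p = 0.0103, adjusted p = 0.457). HET replicate 1 was left out for its low value, so the smaller p is no support for a difference. Reads of Acat2 may be shared with Acat3, which matched it over 64.0% of the transcript at 98.3% identity. Pmvk, the phosphomevalonate kinase, was at 22.5 to 33.0 CPM in HET and 30.2 to 41.3 CPM in WT, and HET replicate 1 alone reached into the WT range. Its difference was -0.41 ± 0.21, with a 95% interval of -0.85 to 0.04. Mvd, the decarboxylase that follows it, was at 20.3 to 33.4 CPM in HET and at 10.1 to 30.7 CPM in WT (0.49 ± 0.31), and only WT replicate 1 lay above 20 CPM in its group. Mvk, the first kinase of the pathway, varied from 3.63 to 14.2 CPM in HET and from 1.46 to 17.3 CPM in WT. Fdps, which makes farnesyl diphosphate, had between 4 and 29 counts per library and shares sequence with 5 processed pseudogenes and 26.7% of its exon bases with Gm43738 on the same strand, so its values are uncertain.

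Of the 11 genes from squalene to cholesterol, 5 were higher and 6 lower in HET, with a median of -0.01. Sqle (chr15:59315077-59331192), the squalene epoxidase and a rate-limiting enzyme, was at 23.3, 21.2, 15.4 and 52.8 CPM in HET and at 37.5, 31.9, 14.0 and 40.8 CPM in WT. HET replicate 4 was 2.64 times the mean of the other HET libraries, and replicate 3 was lowest in each group. The difference was -0.14 ± 0.39, with a 95% interval of -0.97 to 0.69 and an adjusted p of 0.965, and it was -0.63 (adjusted p = 0.825) without HET replicate 4. Fdft1, the squalene synthase, was at 21.8 to 34.9 CPM in HET replicates 1 to 3 and at 67.8 CPM in HET replicate 4, against 25.4 to 43.7 CPM in WT. The difference was -0.01 ± 0.32 with that library and -0.46 (adjusted p = 0.83) without it. Its exons overlap those of Ctsb on the other strand over 18.3% of their bases, and a processed pseudogene resembles it, so the Fdft1 level is uncertain too. Cyp51 (chr5:4081145-4104746), the lanosterol demethylase, was at 35.9 to 43.3 CPM in HET replicates 1 to 3, at 83.1 CPM in HET replicate 4 and at 39.5 to 61.1 CPM in WT. Here HET replicate 4 was above all other 7 libraries, and the difference was 0.05 ± 0.26 with it and -0.29 without it.

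Msmo1 (chr8:64718139-64733792), the methylsterol monooxygenase, was at 22.5, 37.0, 29.7 and 74.6 CPM in HET and at 52.5, 42.6, 25.5 and 76.0 CPM in WT. Replicate 4 was highest in both groups, at 2.51 times the mean of the other HET libraries and 1.89 times the mean of the other WT libraries. The difference was -0.27 ± 0.39, and it was -0.72 (unadjusted p = 0.0481, adjusted p = 0.772) without HET replicate 4. Over the fits that each left out 1 library, the Msmo1 difference ran from -0.72 to 0.0214. Sc5d, the sterol desaturase, behaved alike in HET, with 30.5 to 40.8 CPM in replicates 1 to 3 and 63.2 CPM in replicate 4, against 42.3 to 63.6 CPM in WT. Without HET replicate 4 its groups did not overlap, with a difference of -0.47 (adjusted p = 0.772), compared with -0.22 ± 0.23 with it. Ebp (chrX:8185329-8193512), the sterol isomerase, was at 68.7, 46.5, 39.9 and 62.8 CPM in HET and at 62.4, 55.7, 46.3 and 38.9 CPM in WT. Its groups covered nearly the same range, and the difference was 0.10 ± 0.21.

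Among the remaining 5 sterol enzymes, HET replicate 4 was the highest HET library for Hsd17b7 alone. Dhcr7, the reductase of the last step, was at 14.0 to 23.5 CPM in HET replicates 1, 2 and 4 and at 42.2 CPM in HET replicate 3, against 30.2 to 34.7 CPM in WT. HET replicate 3 was above every WT library, and the other HET libraries were below them all. The difference was -0.41 ± 0.30 with all libraries and -0.79 (unadjusted p = 0.0077, adjusted p = 0.657) without HET replicate 3. HET replicate 3 was left out for its high value, so the smaller p is no support for a difference. Lss, the lanosterol synthase, was lowest in that same library at 7.34 CPM, and ran from 19.0 to 24.7 CPM in the other HET libraries against 10.2 to 15.1 CPM in WT. The Lss difference was 0.42 ± 0.35, or 0.68 without HET replicate 3 (adjusted p = 0.782). Nsdhl, a sterol dehydrogenase, differed by 0.28 ± 0.34, and Hsd17b7, which completes the same demethylation, by -0.35 ± 0.38. Tm7sf2, a sterol reductase, ranged from 1.94 to 10.6 CPM in HET and from 0.731 to 9.03 CPM in WT, and shares 12.1% of its exon bases with Vps51 on the same strand.

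Stard4, a carrier that moves cholesterol between membranes, was at 14.2, 12.1, 13.0 and 12.7 CPM in HET and at 9.41, 15.8, 17.2 and 10.9 CPM in WT. The HET values all lay inside the WT range, and the difference was -0.03 ± 0.30.

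The 8 fatty acid genes had a median difference of 0.09, with 4 higher and 4 lower in HET. Acly (chr11:100476353-100528000), which supplies cytosolic acetyl-CoA from citrate, was at 108, 129, 88.4 and 131 CPM in HET and at 129.9, 103, 126 and 138 CPM in WT. The ranges overlapped, with a difference of -0.12 ± 0.15. Acaca, the acetyl-CoA carboxylase that commits carbon to fatty acids, was at 7.48, 11.1, 9.44 and 15.3 CPM in HET and at 14.0, 15.9, 11.6 and 7.51 CPM in WT. Its difference was -0.18 ± 0.35, and a processed pseudogene matched 64.3% of its transcript. Fasn (chr11:120805846-120824547), the fatty acid synthase, was at 51.8, 41.7, 62.0 and 64.9 CPM in HET and at 50.7, 40.3, 53.1 and 45.6 CPM in WT. HET replicates 3 and 4 lay above all WT libraries and the other HET libraries lay among them, with a difference of 0.21 ± 0.18.

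Scd1 (chr19:44394455-44407879), which encodes a stearoyl-CoA desaturase, had the smallest SD of log2 CPM within groups of the 32 genes (0.099). It was at 348, 329, 321 and 336 CPM in HET and at 317, 302, 366 and 354 CPM in WT. The HET values fell within the WT range, and the 95% interval of the fold change was 0.872 to 1.14 (difference -0.0039 ± 0.09 on the log2 scale). Scd2 (chr19:44293674-44306864), its neighbour on the chromosome and a desaturase of the same family, was at 81.5, 31.5, 41.4 and 75.2 CPM in HET and at 59.7, 39.4, 59.3 and 90.1 CPM in WT. Its libraries were spread widely within both groups, and the difference was -0.11 ± 0.31. The remaining fatty acid genes were low. Elovl6, an elongase, ranged from 4.54 to 8.54 CPM. Fads1, a desaturase of polyunsaturated fatty acids, had 4.42 to 14.4 CPM in HET and 1.25 to 10.6 CPM in WT (0.75 ± 0.62). Its partner Fads2 reached at most 4.79 CPM and was at 0 counts in HET replicate 3, where 0 counts allow up to 3 counts, or 0.451 CPM.

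**Figure D2:**
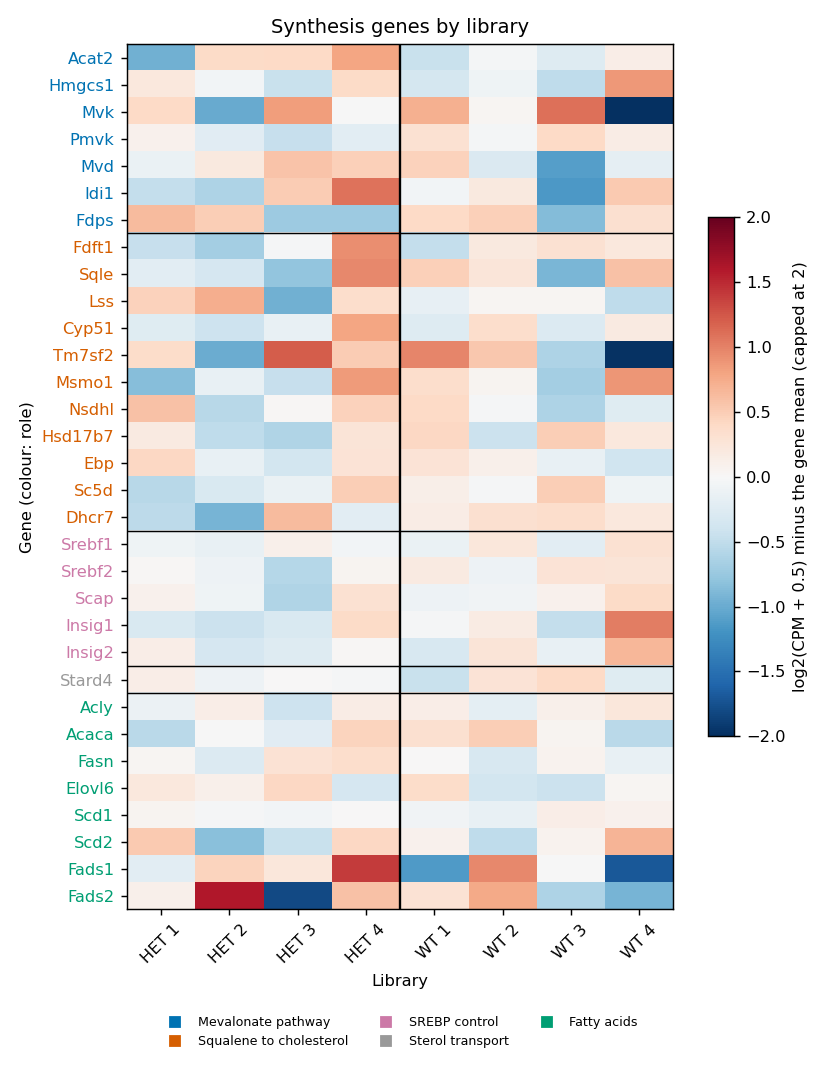
Log2(CPM + 0.5) of each of the 32 genes (rows, label colour by role) minus the mean of that gene over the 8 libraries (columns), capped at 2 in either direction; red is above and blue below the mean. HET 4 is the highest HET library for 16 of the 32 genes.

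The genes spanned a wide range of levels in TPM, and the gene lengths behind the deposited TPM are not known here. In the authors' TPM (scaled for gene length and library size), Scd1 was the highest of the 32 with a mean of 128 ± 1.49 (SD, n = 4) in HET and 133 ± 14.8 in WT, followed by Ebp at 32.5 ± 6.95 and 31.6 ± 6.05 and Srebf1 at 25.7 ± 2.49 and 28.6 ± 4.75. Ebp and Srebf1 did not differ beyond their spread, while each of the 8 Scd1 values (119 to 151 TPM) was above every value of any other gene here. Insig1 (23.8 TPM over all 8 libraries) and Fasn (23.3) came next and were within each other's spread. Most sterol enzymes lay lower in TPM, with Sc5d at 13.6, Msmo1 at 13.3, Cyp51 at 11.5, Idi1 at 11.4, Hmgcs1 at 9.39 and Sqle at 7.45 TPM. In CPM, Cyp51 (50.7 in HET, 48.7 in WT), Msmo1 (41.0 and 49.1) and Hmgcs1 (43.6 and 44.7) came near Ebp (54.5 and 50.8). Acly (114 and 124 CPM) was above Ebp in CPM. Srebf2, at 8.80 TPM, was below Srebf1 in every library in TPM. In CPM the order was the reverse in every library, with means of 83.6 against 49.6 in HET and 102 against 53.6 in WT. Acaca (0.426 TPM), Fads2 (0.221 TPM) and Elovl6 (0.198 TPM) were the lowest in TPM. In CPM, Acaca (10.8 in HET, 12.3 in WT) and Elovl6 (6.86 and 6.01) were above Fdps (1.40 and 1.55). Elovl6 and Srebf1 have 6431 and 5634 exon bases, yet in HET they were at 6.86 and 49.6 CPM and at 0.209 and 25.7 TPM. Elovl6 and Acaca, which span long stretches with introns, had lower TPM for their CPM than the shorter genes Ebp and Insig1. The order of genes by TPM therefore cannot be read as an order per exon base. Summed TPM of the 32 genes was 399 ± 53.5 in HET and 421 ± 29.8 in WT.

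**Figure D3:**
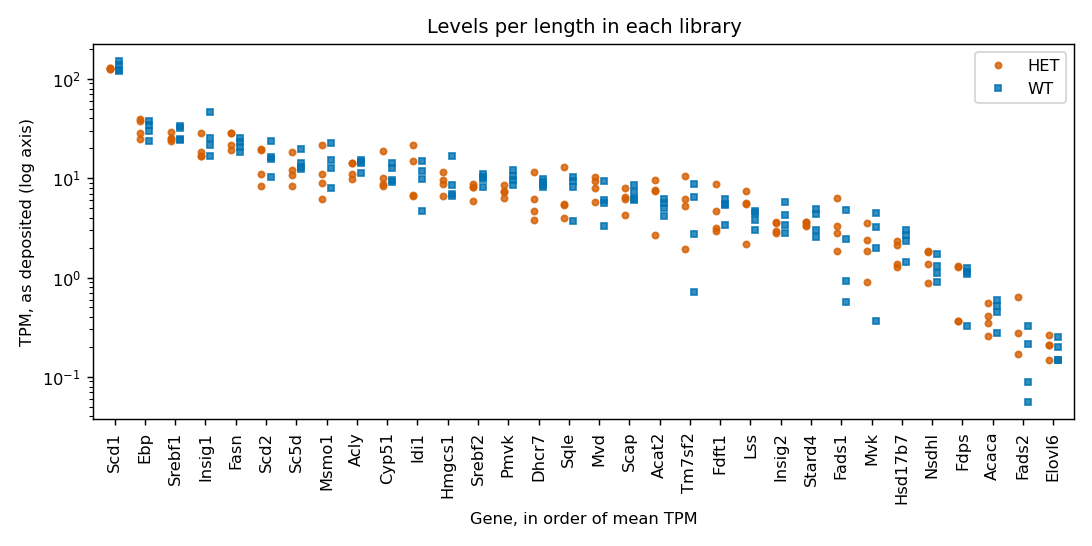
Deposited TPM (log axis) of each of the 32 genes in each library, in order of mean TPM; circles are HET and squares WT libraries, and the 0 of Fads2 in HET replicate 3 cannot be drawn. Scd1 lies at 119 to 151 TPM, above all others, and Elovl6 has the lowest mean at 0.198 TPM. The gene lengths behind the TPM are not known here, and the order of the genes differs in CPM.

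To ask how the genes varied among the repeats, the SD of log2 CPM within groups was set beside that of genes of like level (mean log2 CPM within 0.25). Over the 32 genes the median SD was 0.479, and over all genes tested it was 0.395. Scd2 had an SD of 0.581, above 98.9% of genes of its level, whose median was 0.259. For Msmo1 the SD was 0.696 (above 98.6% of its like), for Sqle 0.725 (96.7%), for Fdft1 0.570 (95.9%), for Mvk 1.21 (95.3%), for Idi1 0.783 (94.7%), for Acat2 0.574 (93.4%), for Insig1 0.520 (93.3%) and for Cyp51 0.444 (93.1%). Hmgcs1, which ranked between Mvk and Idi1, had an SD of 0.508 where the median of its level was 0.298. At the other end, Scd1 had an SD of 0.099, above 13.0% of genes of its level. The SD was 0.298 for Stard4 (above 12.2% of its like), 0.362 for Elovl6 (11.4%) and 0.211 for Pmvk (10.1%).

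**Figure D4:**
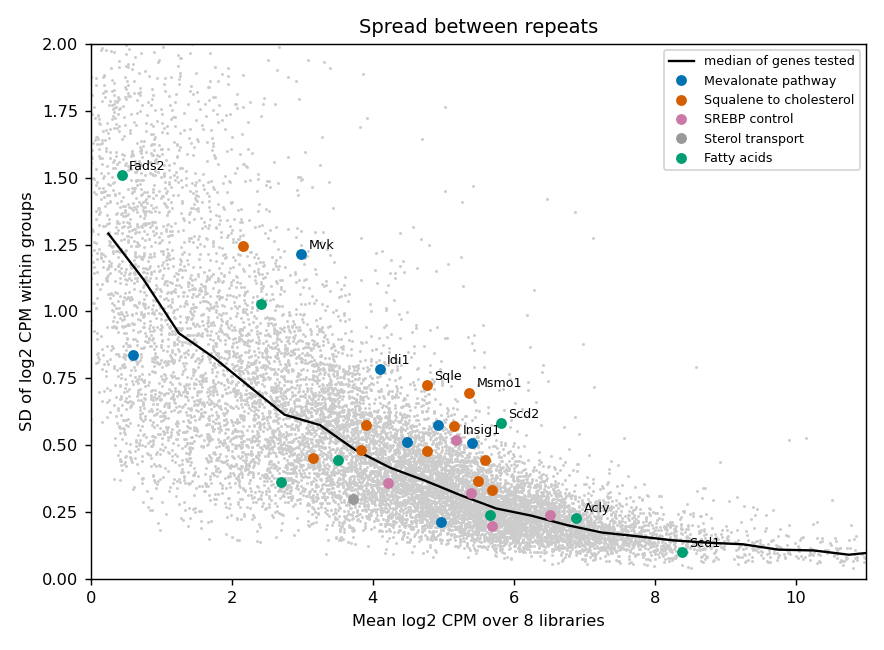
SD of log2 CPM within groups (y axis) against mean log2 CPM over the 8 libraries (x axis) for the genes tested (grey; axes cut at an SD of 2 and a mean of 11) and the 32 synthesis genes (coloured by role), with the running median in black. Msmo1, Sqle and Scd2 lie above the median line at 0.696, 0.725 and 0.581, and Scd1 lies below it at 0.099.

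In HET, the library that stood out most often was replicate 4. It was the highest HET library for 16 of the 32 genes, where it was highest for 25.7% of all genes tested, and it was the lowest for 1. Among the 18 sterol enzymes it was highest for 9 and lowest for none. Summed over these 18 enzymes, the level was 429, 403, 450 and 693 CPM in HET replicates 1 to 4 and 504, 498, 438 and 550 CPM in WT replicates 1 to 4. In WT no single library stood out in this way, since replicates 3 and 4 were each highest for 11 of the 32 genes and lowest for 11 and 8. WT replicate 4 was highest for 4 of the 5 SREBP control genes. HET replicate 4 was also the highest HET library for 14 of 22 cycling markers, whose score was 5.73, 5.71, 6.03 and 6.36 in HET and 5.72, 5.57, 5.38 and 4.41 in WT. In WT, where replicate 4 had the lowest cycling score, its SREBP control score was the highest and its fatty acid score (4.15) the lowest. Its mevalonate (3.88) and squalene to cholesterol (4.43) scores lay between those of the other WT libraries. The part of cycling cells in the library differences was not tested.

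**Figure D5:**
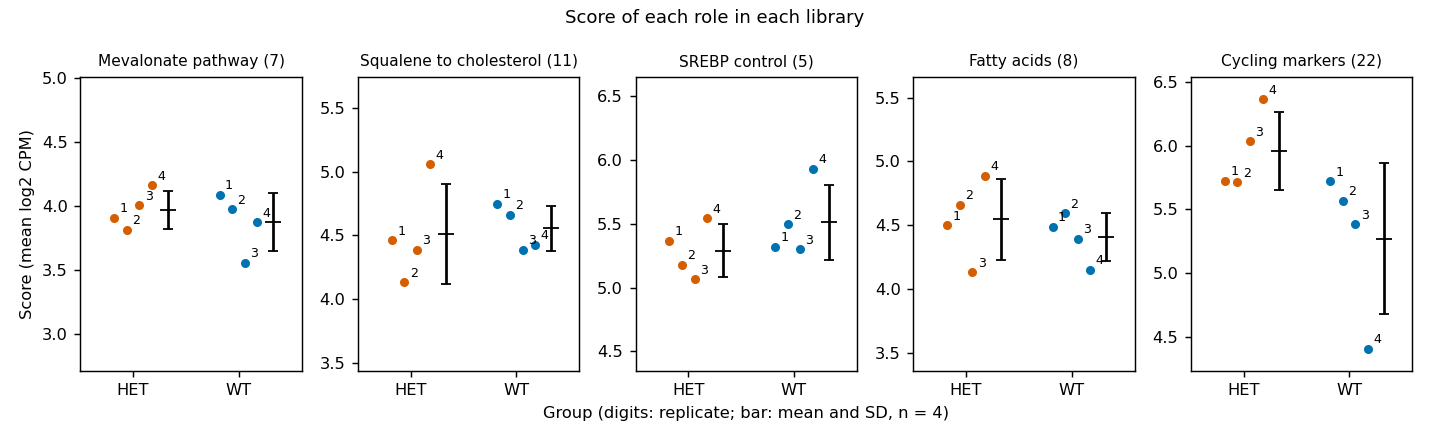
Mean log2 CPM over the genes of 4 roles and over 22 cycling markers (y axis, the same span in each panel) in each library, with the mean and SD of each group (n = 4); digits give the replicate. HET replicate 4 is the highest HET library in all 5 panels (for the cycling markers at 6.36). WT replicate 4 is highest in WT for SREBP control (5.93) and lowest for fatty acids (4.15) and cycling (4.41).

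Finally, other genes of the same pathways were examined from lists drawn up by function. Of 48 such genes, 42 were tested, 21 of them higher and 21 lower in HET, with a median difference of -0.01. None passed an adjusted p of 0.05. At an unadjusted p under 0.05 there were 6 (14.3%, against 7.22% of all genes), 1 higher (against 3.34% of all genes) and 5 lower (against 3.88%), and 4 had groups that did not overlap (9.52%, against 4.61%), 1 higher (against 1.99%) and 3 lower (against 2.62%). Among the lower ones, Npc2, which moves cholesterol out of lysosomes, was at 165, 163, 170.3 and 162 CPM in HET and at 199, 182, 189 and 209 CPM in WT (-0.24 ± 0.10, adjusted p = 0.613). Soat1, which esterifies cholesterol for storage, was at 29.1 to 40.5 CPM in HET and 42.3 to 52.1 CPM in WT (-0.44 ± 0.19, adjusted p = 0.625). Erlin2, which takes part in the turnover of sterol-regulated membrane proteins, was at 8.09 to 16.1 CPM in HET and 17.5 to 23.4 CPM in WT (-0.71 ± 0.30, adjusted p = 0.629). These 3 genes did not overlap between groups. Mbtps1, the protease that makes the opening cut in SREBP, differed by -0.50 ± 0.21 (adjusted p = 0.621), and Ggps1, which makes geranylgeranyl diphosphate, by -0.42 ± 0.19 (adjusted p = 0.657), with groups that overlapped. The 5 tested genes of the list for the sterol sensor LXR (the receptor gene Nr1h2 and the targets Abca1, Abcg1, Mylip and Lpcat3) had a median difference of 0.01, and none had an unadjusted p under 0.05.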

How the data were processed

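The study sorted about 200 B cells per library and prepared SMART-Seq2 libraries. Per the labels and the methods, the authors aligned reads with HISAT2 2.2.1 to mm10 (GRCm38) and counted them per gene with HTSeq. The annotation release and strand setting were not given in the sources used here, so reads of overlapping genes on opposite strands may not be separated. The authors deposited whole-number read counts for 24259 symbols and TPM for 24232 symbols. There were no molecular identifiers, so the limit given for a count of 0 covers counting error alone.

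The main test was the robust quasi-likelihood F-test of edgeR 4.0.16 (in R 4.3.3), with TMM scaling and a model of group alone, on the 12744 genes (99.7% of counts) that passed filterByExpr. Its p-values were adjusted by Benjamini-Hochberg over all genes tested, at a threshold of 0.05. CPM values are TMM-scaled, and scores used a prior count of 2. DESeq2 1.42.0, which the study used, and limma 3.58.1 were alternatives. Others used RLE size factors, kept all genes or only those averaging 50 counts or more, added a block for the replicate number, or used limma-voom with quality weights, limma-trend on log2(TPM + 1) and log2(TPM + 0.1), or only genes with a mean TPM of 1 or more. Immunoglobulin genes, and each library in turn, were also left out. The steps were tested on simulated data. Depth was 6652386 to 12559189 counts per library. What edgeR calls the biological coefficient of variation, here a spread between repeats of a pool and not between animals, was 0.391.

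All 32 genes could be named, with values in every library for Srebf1, Srebf2, Scap, Insig1, Insig2, Hmgcs1, Sqle, Idi1, Stard4, Acly, Acaca, Fasn, Scd1, Scd2, the 3 genes of highest TPM, and any gene with an unadjusted p under 0.05 or no overlap between groups. Other listed genes were named at an unadjusted p under 0.05. Results of some of these genes are not reported here. Values beyond this rule were chosen after they were seen. Genes and lists were chosen with earlier results of these data known. Gene positions came from GENCODE M21 (GRCm38), transcript copies (at least 90% identity over 30% of a transcript) from minimap2 2.31, and promoters from RefSeq.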

Additional observations from a re-analysis of the deposited data

Results flagged for a closer look

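In 86 sets of 4 libraries (each synthesis gene and other value in each group), 3 libraries lay far from the other repeats of their group, with a gap to the nearest repeat that was a larger share of the whole range than Dixon's 95% limit for 4 values. By chance about 1 in 20 sets, or 4.3 here, would do so. Cyp51 was at 83.1 CPM in HET replicate 4 and at 35.9 to 43.3 CPM in the other HET libraries, with a gap of 0.843 of the range. Insig1 was at 47.0 CPM in the same library against 26.6 to 28.9 CPM, with a gap of 0.883. Fdps was at 0.505 CPM in WT replicate 3, below the 1.77 to 2.03 CPM of the remaining WT repeats, with a gap of 0.831, and rested there on 4 counts.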

How the results depend on the processing

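None of the 32 genes had an adjusted p under 0.05 under any of the alternatives, where the lowest adjusted p among them ran from 0.457 to 0.849. The count over all genes, 3 with all libraries, was 77 with DESeq2, 38 with no filter, 7 at a mean of at least 50 counts, 0 with the replicate block, 0 on log2(TPM + 1), 1 on log2(TPM + 0.1), 0 at a mean TPM of at least 1, and 1 to 6 with 1 library left out; the cause was not tested. Of the 32 genes, 1 (Pmvk) had an unadjusted p under 0.05 in each of the 3 fits on TPM, and 0 to 3 had with 1 library left out: Acat2 and Pmvk without HET replicate 1, Lss and Dhcr7 without HET replicate 3, Msmo1 and Sc5d without HET replicate 4, Mvd without WT replicate 1, and Fads1, Srebf2 and Pmvk without WT replicate 2. Between 0 and 2 did not overlap between groups with 1 library left out, where 7.26% to 9.18% of all genes did not; at an unadjusted p under 0.05 it was 6.0% to 8.33% of all genes. Their median difference ran from -0.13 to 0.02 with 1 library left out and was above 0 without HET replicate 2, HET replicate 3 or WT replicate 4. Fits that needed a mean of 50 counts or a mean TPM of 1 dropped 3 and 4 of the genes.

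Small differences changed sign. With the replicate block, Hmgcs1 was 0.0417, Mvk 0.0545 and Stard4 0.0107. With limma-voom, Hmgcs1 was 0.0305, Mvk 0.0896, Cyp51 -0.0249, Stard4 0.0381 and Fads2 -0.0933. On TPM, Cyp51 was -0.0442 with a pseudocount of 1 at either filter and -0.0513 with 0.1, where Mvk was 0.0669. Scd1 was 0.0006 with DESeq2 and 0.0001 with RLE size factors. With 1 library left out, 15 genes changed sign: Hmgcs1 (-0.18 to 0.37), Mvk (-0.51 to 0.26), Idi1 (-0.11 to 0.53), Fdps (-0.49 to 0.11), Fdft1 (-0.46 to 0.18), Sqle (-0.63 to 0.0613), Cyp51 (-0.29 to 0.19), Tm7sf2 (-0.0111 to 0.90), Msmo1 (-0.72 to 0.0214), Ebp (-0.0275 to 0.23), Scap (-0.26 to 0.0308), Stard4 (-0.17 to 0.12), Scd1 (-0.0493 to 0.0486), Scd2 (-0.33 to 0.12) and Fads2 (-0.12 to 1.20).

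Replicate numbers did not pair the samples: deviations of same-numbered libraries correlated at -0.0511, 0.0129, 0.00279 and -0.0262, and not every library correlated best with its own number. With the replicate block, 15 of the 32 genes were higher and 17 lower, with a median of -0.05 and none called. Depth limits Fdps and Fads2, with at most 37 counts per library.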
